A study of Drosophila melanogaster with 13 samples.

Results

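The broad Abd-B domains are the Abd-B binding peaks that were at least 2000 bp wide in a ChIP-Seq peak list called at a q-value of 1e-10. They were chosen by their measured width alone, and the rule selected 737 of 9681 Abd-B peaks. The study expressed Hox proteins fused to GFP in Drosophila melanogaster Kc167 cells, a cell line derived from late female embryos, and mapped their binding with an antibody against GFP. The fusions were expressed transiently from plasmids with an inducible metallothionein promoter, and cells were sorted for GFP, so the binding is that of an introduced and tagged protein. The line has no Hox expression apart from the fusion. Without Hth its Exd is kept out of the nucleus, so only the Ubx+Hth condition has both cofactors there.

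Experiment 1 compared Ubx, Abd-A and Abd-B, each without added Hth, with 2 replicates each and reads of 36 bp. Experiment 2 compared Ubx, a mutant Ubx with changed DNA-contacting residues in its homeodomain, and Ubx expressed together with Hth from a single bicistronic construct (Ubx+Hth), with reads of 100 bp. The mutant and Ubx+Hth had 2 replicates, and Ubx of Experiment 2 had 1. All 6 conditions were set against the same input chromatin from Experiment 1, and replicates were combined before peaks were called. The lists therefore hold 1 set of peaks per condition with no replicate error, and no difference below was tested across replicates. They also hold no read counts, so the depth behind a peak cannot be read from them. The Wilson 95% intervals given with shares cover the counting of regions only.

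Ubx, Abd-A and Abd-B are the Hox proteins of the Bithorax complex, which specify the identity of the posterior thorax and the abdomen of the fly, with Abd-B acting most posteriorly. Each binds DNA through a homeodomain that recognises short, AT-rich sites. Exd and Hth are homeodomain cofactors of the TALE class: Hth brings Exd into the nucleus, and Exd can bind DNA together with a Hox protein. A broad peak is a stretch in which enrichment stays above the caller's threshold without a long break, so it can hold several neighbouring sites of binding.

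The domains ranged from 2004 to 9681 bp, with a median of 2682 bp and a mean of 3040 bp ± 1158 (SD over 737 domains). Most were close to the threshold: 270 reached 3000 bp, 103 reached 4000 bp and 49 reached 5000 bp. They were 7.61% of the Abd-B peaks but held 26.4% of their summed length, 2241 of 8474 kb. The narrower 8944 Abd-B peaks had a median width of 565 bp. Widths ran on without a step at the threshold: the domains just inside it were 2004, 2004 and 2005 bp wide, with scores of 336, 177 and 77.5, and the peaks just outside it were 1999, 1997 and 1997 bp wide, with scores of 222, 51.8 and 62.9. The deposited score is the −log10 of the peak's q-value, so a higher score means stronger evidence of enrichment over input.

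The domains were also among the higher-scoring Abd-B peaks. Their scores ran from 44.0 to 483 with a median of 187, against a range of 10.0 to 440 and a median of 62.9 in the narrower peaks. The 968 peaks that make up the top-scoring 10% of the Abd-B list included 385 domains, which is 39.8% of those peaks and 52.2% of the domains. Another 22 domains lay in the lower-scoring 50% of the list. Width and score come from the same call and went together, with a Spearman rho of 0.69 over all 9681 peaks and of 0.36 over the domains. Since both belong to the measurement that chose the domains, these values describe the set and were not tested.

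**Figure D1:**
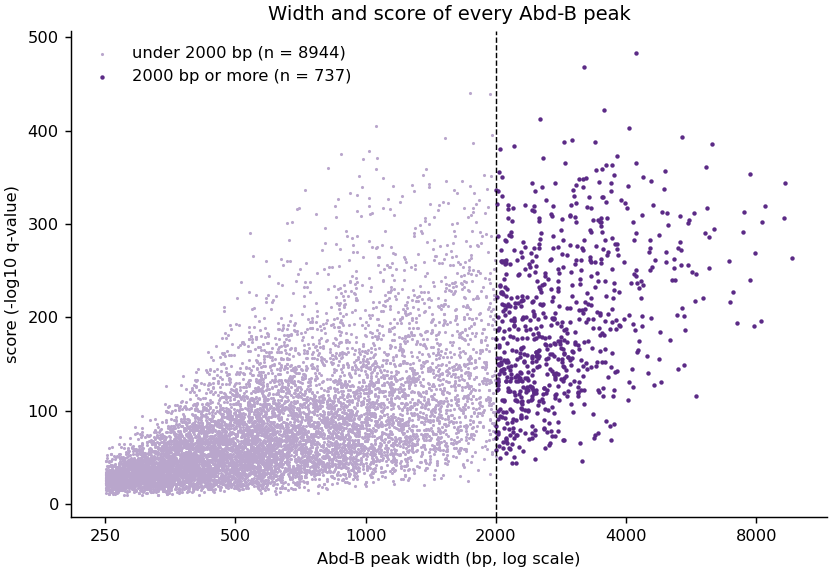
Width (x axis, bp, log scale) and score (y axis, −log10 q-value) of each of the 9681 Abd-B peaks, with the 737 domains in dark purple to the right of the dashed line at 2000 bp. The cloud is continuous across the line, the domains reach 9681 bp, and no domain has a score under 44.0.

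The widest peak was not the highest-scoring one. The widest domain lay on X from 12555168 to 12564848 (9681 bp, BDGP release 5, as all positions here), and its score of 263 ranked 300 among Abd-B peaks. The next in width lay on 3L from 14047606 to 14056895 (9290 bp), on X from 7584160 to 7593410 (9251 bp), on 3L from 16793218 to 16801579 (8362 bp) and on X from 12643231 to 12651452 (8222 bp). The highest score of the whole Abd-B list, 483, belonged to a domain of 4227 bp on 3R from 16085116 to 16089342. The next-highest scores among the domains were 468 on 2L from 18630355 to 18633544, 422 on 3L from 18804710 to 18808272, 412 on 2R from 2133400 to 2135933 and 403 on 3L from 15587439 to 15591504.

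Nearly every domain also held binding of another Hox condition. At the same q-value of 1e-10, a peak of the Ubx+Hth list lay in 728 of 737 domains (98.8%, interval 97.7% to 99.4%), against a background of 63.8% over all Abd-B peaks. An Abd-A peak lay in 713 domains (96.7%, 95.2% to 97.8%), with a background of 52.5%. Ubx of Experiment 1 had a peak in 697 domains (94.6%, 92.7% to 96.0%), with a background of 43.5%. Ubx of Experiment 2 had a peak in 666 (90.4%, 88.0% to 92.3%), with a background of 36.9%. The mutant Ubx, the condition with the shortest list, had a peak in 436 (59.2%, 55.6% to 62.7%), with a background of 14.7%. At least 1 of these 5 lists had a peak in 730 domains (99.1%), with a background of 68%. Each of these shares was above its background, and a share of at least 1 bp was enough to count.

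The combination of lists varied more, mainly in whether the mutant had a peak. All 5 lists had a peak in 434 domains (58.9%), and all but the mutant had one in a further 222 (30.1%). In 39 domains only Ubx of Experiment 1, Abd-A and Ubx+Hth had a peak, and in 14 only Ubx+Hth did. Among the narrower Abd-B peaks, 9.37% held all 5 lists and 34.6% held none. In the relaxed lists, called at a q-value of 1e-2, all 5 had a peak in 682 domains (92.5%).

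The 7 domains with no stringent peak of another condition were not the weakest Abd-B peaks. Their scores ran from 60.4 to 315, and the 3 with the highest scores lay on 3R from 15449606 to 15452027 (score 315), on 3R from 10532379 to 10535071 (score 308) and on 2L from 16640863 to 16642952 (score 260). Each of the 7 met a relaxed peak of at least 1 other list. How much the relaxed peaks covered varied. The domain on 2L from 16640863 to 16642952 was covered to 39.8% by relaxed Ubx+Hth and to 59.3% by the 5 relaxed lists together, and the one on 3L from 18396565 to 18398870 to 46.7% by relaxed Abd-A. In the 3R domain with a score of 308, only Ubx+Hth had a relaxed peak, over 11.7% of the domain. The domain on 2L from 12418637 to 12420832 was also met by Ubx+Hth alone, over 13.2%, and the one on 3R from 24412282 to 24414421 by Abd-A alone, over 18.7%. The domain on 3L from 1151235 to 1154087 was met by 3 relaxed lists, of which Ubx+Hth covered the most, 19.6%. Among the 3 domains just inside the width threshold, the one on 3R from 21956398 to 21958401 held a stringent peak of Ubx+Hth alone, over 12.4% of its length.

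A wide region meets more peaks than a narrow one, so the length covered was compared as well. The Ubx+Hth list covered 71.2% of the summed length of the domains, Abd-A 65.2%, Ubx of Experiment 1 50.9%, Ubx of Experiment 2 43.3% and the mutant 13.6%. In the narrower Abd-B peaks the same lists covered 50.2%, 42.8%, 30.8%, 23.8% and 5.28%. The median domain was covered to 73.7% by Ubx+Hth (quartiles 57.6% and 86.9%), to 67.7% by Abd-A (49.2% and 82.4%), to 50.8% by Ubx of Experiment 1 (32.6% and 67.0%), to 41.5% by Ubx of Experiment 2 (22.7% and 60.4%) and to 8.84% by the mutant (0% and 20.1%). The domains thus spread widely in how much of them another protein covered, and the order of the 5 conditions was the same in the pooled and in the median values. That order rested on the lists as called. With the other lists at 1e-2, Abd-A covered 89.5% and Ubx+Hth 88.6%, and the mutant rose to 44.8%. When only the top 1793 peaks by score of each list were used, as many as the mutant list holds, Ubx+Hth covered 50.6%, Abd-A 48.8%, Ubx of Experiments 1 and 2 37.0% and 33.1%, and the mutant stayed at 13.6%.

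Narrower peaks of like score were closer to the domains than narrower peaks as a whole. There were 1181 narrower Abd-B peaks with scores between the quartiles of the domains' scores, 132 and 258, and their median width was 1029 bp. Like score means the same range only: their median score was 166, against 187 in the domains within that range. Ubx+Hth covered 62.0% of their length, Abd-A 56.6%, Ubx of Experiment 1 44.6%, Ubx of Experiment 2 36.8% and the mutant 8.83%. In the 369 domains with scores in the same range, the values were 72.0%, 67.4%, 52.9%, 44.9% and 14.1%. The median cover of the narrower peaks and of the domains of like score was 68.8% and 75.2% for Ubx+Hth, 66.7% and 70.5% for Abd-A, 49.0% and 52.5% for Ubx of Experiment 1, 37.6% and 45.6% for Ubx of Experiment 2 and 0% and 10.1% for the mutant. The medians were thus closer than the pooled shares for Ubx+Hth, Abd-A and Ubx of Experiment 1, slightly closer for Ubx of Experiment 2 and farther apart for the mutant. The lower end differed too, since 13.5% of the narrower peaks of like score met none of the 5 lists while each of the 369 domains met at least 1. Closer in width were the 1815 narrower peaks of 1000 bp or more. A peak of Ubx+Hth lay in 89.5% of these, of Abd-A in 82.5%, of Ubx of Experiments 1 and 2 in 74.2% and 65.5%, of the mutant in 28.6% and of any list in 91.1%, all nearer to the domains than the shares over all Abd-B peaks. Their covered lengths were 61.1%, 54.7%, 40.6%, 32.2% and 7.83%, each below that of the domains.

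**Figure D2:**
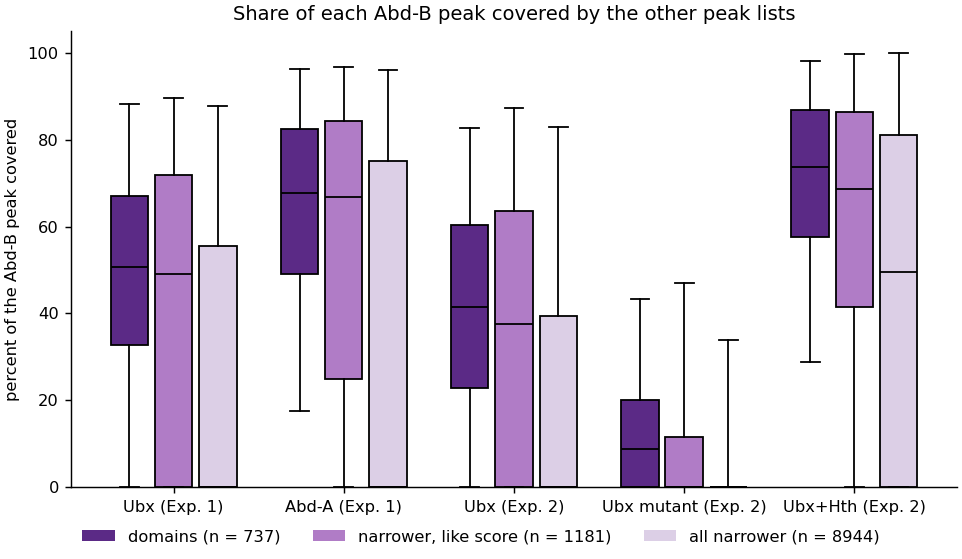
Percent of each Abd-B peak covered by each of the 5 other lists (y axis), for the domains, narrower peaks of like score and all narrower peaks. Boxes run from the lower to the upper quartile with the median as a line, and whiskers from the 5th to the 95th percentile. The medians of the domains are 50.8%, 67.7%, 41.5%, 8.84% and 73.7% from left to right, while the median narrower peak is covered to 0% by each list but Ubx+Hth.

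The midpoint of a peak was used as a measure that takes 1 position per peak, whatever its width. The midpoint of a wider peak still lies farther from the edges, where cover was lower. The midpoint of the domain lay inside a Ubx+Hth peak in 78.2% of domains, inside an Abd-A peak in 73.9%, inside a peak of Ubx of Experiment 1 in 61.2%, of Ubx of Experiment 2 in 52.4% and of the mutant in 16.6%. In all narrower peaks these shares were 52.2%, 43.7%, 32.8%, 25.03% and 6.04%. In the narrower peaks of 1000 bp or more they lay between, at 68.5%, 65.6%, 51.8%, 40.2% and 11.4%, so the share was higher in wider peaks. At like score the gap was smaller: in the 369 domains the shares were 81.6% for Ubx+Hth, 79.9% for Abd-A, 65.9% and 57.2% for Ubx of Experiments 1 and 2, and 18.2% for the mutant, and in the 1181 narrower peaks 73.8%, 69.0%, 58.4%, 48.7% and 12.8%. In all 5 lists the share was higher in the domains. The intervals, domains first, were 75.6% to 83.7% and 66.3% to 71.6% for Abd-A and 77.3% to 85.2% and 71.3% to 76.3% for Ubx+Hth. Those of Ubx of Experiment 1 were 60.9% to 70.5% and 55.6% to 61.2%. Ubx of Experiment 2 had 52.1% to 62.1% and 45.8% to 51.5%, and the mutant 14.6% to 22.4% and 11.0% to 14.8%. These intervals cover the counting of regions only, and the differences were not tested.

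The covering peaks were seldom as wide as the domain. Ubx+Hth had 2 or more separate peaks in 380 domains (51.6%), Ubx of Experiment 1 in 321 (43.6%), Ubx of Experiment 2 in 306 (41.5%), Abd-A in 289 (39.2%) and the mutant in 172 (23.3%). The most in a single domain were 8 mutant peaks, 6 of Ubx+Hth and of Ubx of Experiment 2, 5 of Ubx of Experiment 1 and 4 of Abd-A. Per kb of sequence the domains held 0.56 Ubx+Hth peaks, against 0.93 in the narrower Abd-B peaks, whereas the mutant had 0.31 per kb in domains and 0.16 in narrower peaks. The values were 0.481 and 0.719 for Abd-A, 0.499 and 0.582 for Ubx of Experiment 1 and 0.482 and 0.485 for Ubx of Experiment 2. A peak that shared 1 bp counted in full, which weighs more in short regions, so these values do not measure cover. A single Ubx+Hth peak covered the whole domain in 16 domains and a single Abd-A peak in 5, but no domain was wholly covered by either Ubx list or by the mutant.

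The lists also differed in how close neighbouring peaks could lie, which sets when a broad peak splits. The smallest gap between Abd-B peaks was 254 bp, and it was 250 bp for Abd-A, 241 bp and 232 bp for Ubx of Experiments 1 and 2, 200 bp for Ubx+Hth and 178 bp for the mutant. With every list joined at gaps up to 254 bp, an alternative chosen after the data were seen, Ubx+Hth had 2 or more peaks in 321 domains, Ubx of Experiment 1 in 309, Ubx of Experiment 2 in 293, Abd-A in 286 and the mutant in 155. Split coverage thus remained frequent in all 5 lists, and the lead of Ubx+Hth over Ubx of Experiment 1 shrank from 380 against 321 to 321 against 309.

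**Figure D3:**
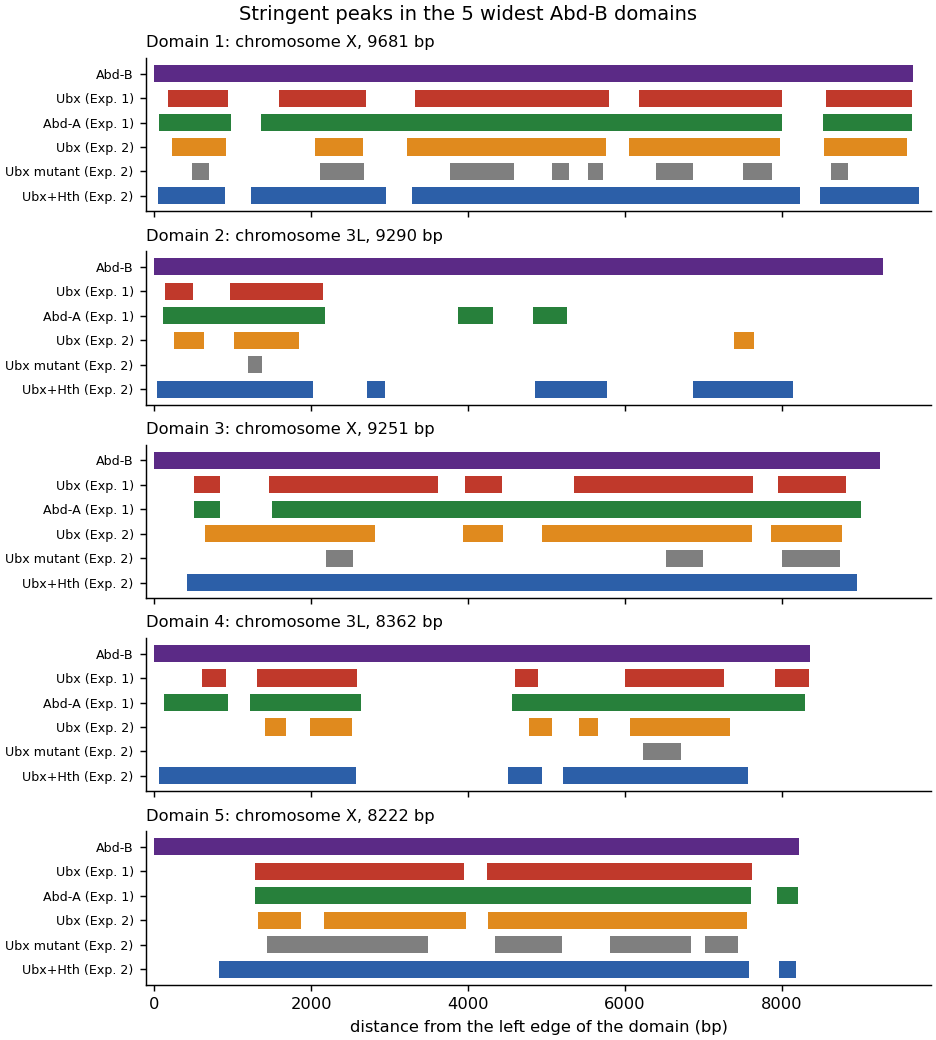
Peaks of the 6 stringent lists in the 5 widest domains, by distance from the left edge of the domain in bp (x axis), with 1 row of bars per list. The Abd-B peak spans each panel as 1 bar, and the other lists are mostly split, with 8 mutant peaks in the widest domain and a Ubx+Hth peak of 8534 bp in the third panel.

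The 5 widest domains show how different the inside of a domain could be. The widest, on X, held 5 peaks of each Ubx list, 3 of Abd-A, 4 of Ubx+Hth and 8 of the mutant. Ubx+Hth covered 89.9% of it, Abd-A 89.8%, Ubx of Experiment 1 75.2%, Ubx of Experiment 2 70.5% and the mutant 31.5%. In the middle of the domain the peaks of the 2 Ubx lists and the mutant were aligned. The Ubx peak of Experiment 1 from 3321 to 5795 bp, which ranked 18, matched a Ubx peak of Experiment 2 from 3227 to 5764 bp, which ranked 12. Within both lay 3 mutant peaks. Abd-A and Ubx+Hth each had a single longer peak there, from 1361 to 8002 bp and from 3289 to 8232 bp. The 9290 bp domain on 3L was the opposite case. Its Abd-B score of 344 ranked 56, but Ubx+Hth covered 47.4% of it, Abd-A 31.9%, Ubx of Experiment 1 16.4%, Ubx of Experiment 2 15.8% and the mutant 1.91%, and the 5 lists together 54.3%.

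In that 3L domain the highest-scoring peaks of the other proteins lay at the left edge. An Abd-A peak from 107 to 2177 bp ranked 4 in its list, a Ubx peak of Experiment 1 from 973 to 2147 bp ranked 54, and a Ubx+Hth peak from 42 to 2021 bp ranked 36. Beyond them the Abd-A peaks had scores of 32.1 and 18.3, and Ubx+Hth had peaks from 4853 to 5770 bp and from 6865 to 8141 bp with scores of 38.1 and 57.6. The Abd-B peak ran on over the whole length.

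In the 9251 bp domain on X, Ubx+Hth formed a single peak of 8534 bp, the widest in its list, and Abd-A formed one of 7505 bp, also the widest in its list. Ubx of Experiment 2 was split into 4 peaks there and Ubx of Experiment 1 into 5. The 8222 bp domain on X was the one of the 5 with the most mutant binding. Its 4 mutant peaks covered 52.8% of it, and the highest of them had a score of 124, which ranked 12 in the mutant list. The Ubx peak of Experiment 2 that spans the same stretch ranked 5 and the Ubx+Hth peak ranked 14. In the 8362 bp domain on 3L, by contrast, the mutant had 1 peak, over 5.93%, and no list had a stringent peak between 2632 and 4515 bp.

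In the 5 domains with the highest Abd-B scores, cover by Ubx+Hth ran from 32.3% to 77.6%. The domain on 3R with the top score of 483 was covered to 57.6% by Ubx+Hth, to 52.9% by Abd-A, to 48.9% and 41.5% by Ubx of Experiments 1 and 2, and to 9.30% by the mutant. The domain on 2R from 2133400 to 2135933 was covered to 32.3% by Ubx+Hth and to 29.7% by Abd-A and held no mutant peak. That 2R domain was the least covered of the 5 by all lists together (34.6%), and the one on 2L, which also lacked a mutant peak, was the most covered (77.7%).

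Across the domains, cover by the other lists was only weakly ordered by Abd-B width and score. The Spearman rho of the percent covered with the Abd-B score lay between 0.09 for Abd-A and 0.22 for the mutant, and with width between 0.10 for Ubx+Hth and 0.16 for the mutant. Cover by one list went with cover by another more closely, from a rho of 0.50 for the mutant and Ubx+Hth to 0.83 for Abd-A and Ubx of Experiment 1. All of these are descriptions over the same 737 domains, and all lists share the input.

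Wider domains held more peaks and met the mutant list more often, but a longer region also meets more peaks by its length. The mean number of peaks of Ubx of Experiment 1 rose in steps from 1.16 in the 302 domains under 2500 bp to 1.69 in the 167 domains from 3000 to 4000 bp and 3.02 in the 49 domains of 5000 bp or more. The mutant had a peak in 50.3% of the domains under 2500 bp, in 69.5% of those from 3000 to 4000 bp and in 89.8% of those of 5000 bp or more. Per kb, from the narrowest to the widest class, peaks of Ubx of Experiment 1 fell from 0.522 to 0.474. Those of Abd-A fell from 0.518 to 0.410 and those of Ubx+Hth from 0.623 to 0.429. Ubx of Experiment 2 went from 0.488 to 0.499 per kb and the mutant from 0.286 to 0.352. The length covered changed less: Ubx+Hth covered 68.8% in the narrowest class and 78.7% in the widest, Abd-A 62.0% and 72.0%, and the mutant 12.0% and 18.2%. The rise was not even: all 5 lists had their lowest cover, and the mutant its lowest share of domains with a peak (49.1%), in the class from 2500 to 3000 bp.

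**Figure D4:**
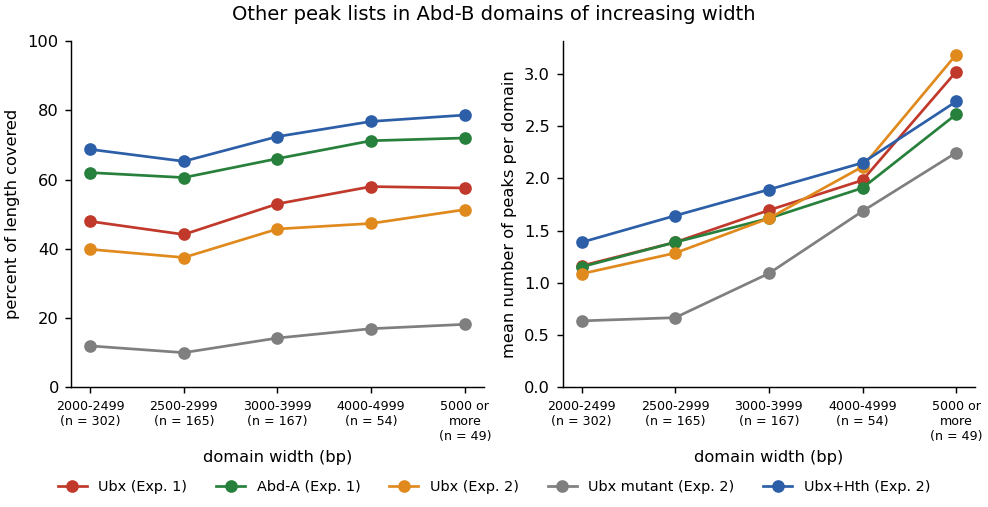
Percent of domain length covered (left) and mean number of peaks per domain (right) for the 5 other lists, in 5 classes of domain width in bp with the number of domains in each class. Cover by Ubx+Hth lies between 65.3% and 78.7%, while the mean number of peaks of Ubx of Experiment 1 goes from 1.16 to 3.02.

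Cover was lower toward the edges of the domains. With each domain divided into 20 equal parts, Ubx+Hth covered 42.2% of the outermost parts and 78.1% of the middle ones. The corresponding values were 31.0% and 73.9% for Abd-A, 19.03% and 58.9% for Ubx of Experiment 1, 15.5% and 50.6% for Ubx of Experiment 2, and 2.24% and 15.9% for the mutant. The profile was close to symmetric, with 41.6% in the leftmost and 42.8% in the rightmost part for Ubx+Hth. Cover also fell toward the edges of narrower Abd-B peaks, and there the ratio of middle to outermost parts was higher in all 5 lists, for example 2.98 against 2.38 for Abd-A and 4.06 against 3.28 for Ubx of Experiment 2. The difference in percentage points went the other way, and was larger in the domains in all 5 lists. For Abd-A it was 42.9 in the domains and 34.1 in the narrower peaks.

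**Figure D5:**
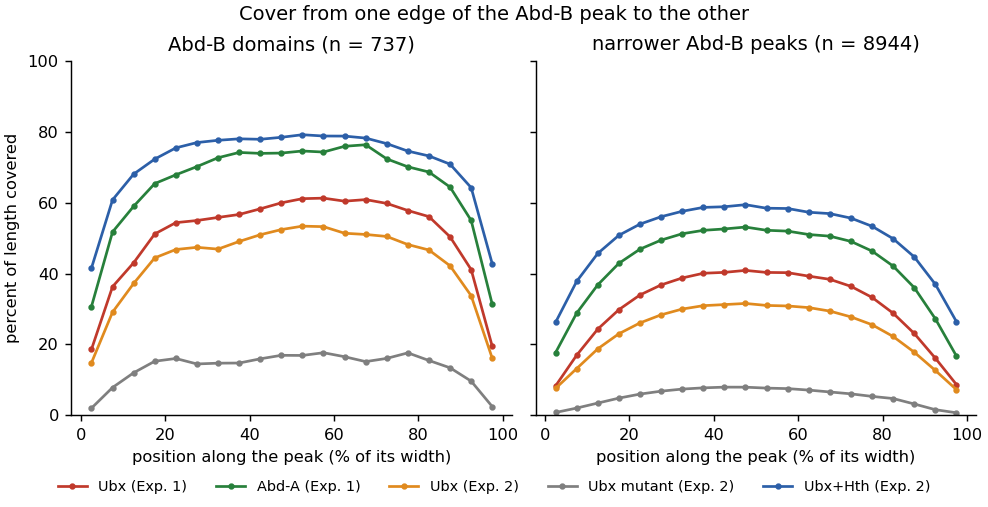
Percent of length covered by each list (y axis) in 20 equal parts from the left to the right edge of the Abd-B peak (x axis, percent of its width), for the 737 domains and the 8944 narrower peaks. Each point is the share of the summed length of that part, and in the domains the curves run from 42.2% at the edges to 78.1% in the middle for Ubx+Hth and from 2.24% to 15.9% for the mutant.

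The stretches that the 5 lists left uncovered summed to 499 kb, 22.3% of the length of the domains, against 42.1% of the length of the narrower peaks. Of these 499 kb, 63.6% lay at the edges of domains and 33.1% between covered stretches, and the rest was in the 7 domains with no stringent peak of another list. An uncovered stretch between covered ones occurred in 320 domains (43.4%). In 76 domains (10.3%) some uncovered stretch reached 1000 bp, and 31 domains (4.21%) were covered from end to end by the 5 lists together. In the relaxed lists the 5 together covered 94.8% of the length of the domains, in a mean of 1.14 covered stretches per domain against 1.54 in the stringent lists.

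Within the domains the lists were largely nested. Of the 304 kb that the mutant covered, 99.7% was also covered by Ubx+Hth, 99.3% by Abd-A, 98.0% by Ubx of Experiment 1 and 96.5% by Ubx of Experiment 2. Of the 970 kb covered by Ubx of Experiment 2, 98.6% was covered by Ubx+Hth, and only 59.9% of the length covered by Ubx+Hth was covered by Ubx of Experiment 2. Of the length covered by Ubx of Experiment 1, 97.3% was covered by Abd-A, and 76.0% of the length of Abd-A was covered by that Ubx list. Nesting was not particular to the domains. In the narrower peaks Ubx+Hth covered 98.0% of the length of the mutant and 96.3% of that of Ubx of Experiment 2. Abd-A covered 92.4% of the length of Ubx of Experiment 1 there. The most common combination of lists at a base was all but the mutant (562 kb, 25.1%), followed by none (22.3%), all 5 (290 kb, 12.9%) and Ubx+Hth alone (227 kb, 10.2%). All 5 lists covered 4.29% of the length of the narrower peaks.

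The 2 Ubx lists, which are separate experiments on the same protein, also differed. Ubx of Experiment 1 covered 75.8% of its own length in common with Ubx of Experiment 2, and 89.1% of the latter was covered by the former. In 506 domains Ubx of Experiment 1 covered more and in 200 domains Ubx of Experiment 2 did, with a median difference of 5.74 percentage points of the domain. The read length, the read depth, the number of replicates and the experiment differed between these lists and cannot be told apart.

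Within Experiment 2 the median differences were larger, and the lists compared lay farther apart in read depth than the 2 Ubx lists. The Ubx pair is therefore no scale for these differences. Ubx+Hth covered more of the domain than Ubx in 718 of 737 domains and less in 10, with a median difference of 26.3 percentage points (quartiles 15.4 and 39.8). Ubx covered more than its mutant in 660 domains and less in 7, with a median difference of 28.0 percentage points (15.4 and 41.7). In Experiment 1, Abd-A covered more than Ubx in 648 domains and less in 66, with a median difference of 12.4 percentage points. These counts set pooled lists side by side, and the Ubx list of Experiment 2 came from 1 replicate. The Ubx+Hth and mutant libraries were sequenced more deeply than the Ubx library of that experiment. The more deeply sequenced condition thus covered more when Ubx+Hth was set against Ubx, and less when the mutant was. The part of depth in these differences was not tested. In narrower Abd-B peaks of like score Ubx+Hth covered more than Ubx in 78.8% of peaks, against 97.4% of all 737 domains, with a median difference of 19.6 percentage points. Of these 1181 narrower peaks, Ubx covered more in 74 and the 2 lists covered equal lengths in 176, while 9 domains had equal cover. The ties thus make up much of the gap between these shares, and the domains were not limited to like score here.

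The mutant, whose homeodomain residues that touch DNA were changed, divided the domains into sets that also differed in the other lists. Of the 436 domains with a mutant peak, the median was 2876 bp in width and 202 in Abd-B score, and of the 301 without one it was 2507 bp and 161. Ubx of Experiment 2 covered 53.9% of the former and 24.6% of the latter, Ubx of Experiment 1 60.8% and 33.5%, Abd-A 73.8% and 49.9%, and Ubx+Hth 78.4% and 58.7%. Of the 301, 250 met a relaxed mutant peak. The mutant covered the most of a domain on X from 7193656 to 7195916 (82.0%), on X from 2016956 to 2019065 (79.4%) and on X from 10699197 to 10701230 (75.8%). In these 3 domains Ubx of Experiment 2 covered 92.0%, 84.0% and 82.4%, and every other list covered at least 88.1%.

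The few domains that either Ubx list missed were less covered by the other lists too. The 40 domains without a peak of Ubx of Experiment 1 were covered to 11.5% by Abd-A, to 4.18% by Ubx of Experiment 2 and to 32.4% by Ubx+Hth. Their median Abd-B score was 155, against 190 in the 697 domains with such a peak. In the 71 domains without a peak of Ubx of Experiment 2, Ubx+Hth still covered 35.9%. The 3 domains named as most covered by the 5 lists together lay on 2L from 220590 to 224746, from 478640 to 482060 and from 2161206 to 2163503. They are the first by position of the 31 that were wholly covered, and the mutant covered 0%, 49.8% and 28.6% of them.

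Seen from the other lists, the domains took up a large part of the strongest and widest binding. They were touched by 38.2% of the 1793 mutant peaks, 25.6% of the 4218 peaks of Ubx of Experiment 2, 23.1% of the 4830 of Ubx of Experiment 1, 19.04% of the 5656 of Abd-A and 15.7% of the 7971 of Ubx+Hth. Of the 10% of peaks with the highest scores in each list, 53.7% of those of Ubx of Experiment 2, 50.7% of Ubx of Experiment 1, 49.7% of Abd-A, 45.3% of the mutant and 42.2% of Ubx+Hth lay in a domain. Peaks inside the domains were wider than those outside, with a median of 1133 against 507 bp for Abd-A and 1025 against 445 bp for Ubx+Hth. Broad peaks of the other lists fell mostly there: all 129 peaks of Ubx of Experiment 1 that reached 2000 bp touched a domain, as did 251 of 264 of Abd-A, 89 of 92 of Ubx of Experiment 2, 285 of 320 of Ubx+Hth and 6 of 8 of the mutant. A peak that wide also meets a domain more easily than a short one. Such peaks were 7.61% of the Abd-B list, 4.67% of Abd-A and 4.01% of Ubx+Hth. They were 2.67% and 2.18% of Ubx of Experiments 1 and 2 and 0.446% of the mutant. The gap depended on the q-value, since at 1e-2 the share was 12.0% for Abd-B and 10.6% for Abd-A.

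The domains were spread over all the arms. There were 196 on 3R (8.39% of its Abd-B peaks), 148 on 2L (8.69%), 143 on 3L (7.05%), 131 on X (8.01%), 111 on 2R (5.87%) and 8 on chromosome 4 (9.09%). The intervals were 4.90% to 7.03% for 2R, 7.44% to 10.1% for 2L and 7.34% to 9.59% for 3R. For 3L the interval was 6.02% to 8.25% and for X 6.79% to 9.42%, and no difference between arms was tested. Chromosome 4 with 88 Abd-B peaks allowed 4.68% to 16.9%. The widest domains were most frequent on X, where 16 of 131 reached 5000 bp (12.2%), against 12 on 3L (8.39%), 12 on 3R (6.12%), 6 on 2L (4.05%) and 3 on 2R (2.70%).

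Each of the 5 lists covered the most of the domains on X, with the largest lead for the mutant. X also had the most domains of 5000 bp or more, and arms were not compared at like width. The mutant covered 19.6% of the length of the domains on X, between 11.7% and 13.8% on 2L, 2R, 3L and 3R, and 1.14% on chromosome 4. Ubx of Experiment 1 covered 59.1% on X, 54.8% on 2R and 44.5% on 2L. On X and 2R, Ubx of Experiment 2 covered 50.4% and 47.3%, Abd-A 70.9% and 70.3%, and Ubx+Hth 76.2% and 75.9%. In narrower Abd-B peaks the mutant covered 6.79% on X and between 4.59% and 5.35% on the other large arms, so X was the highest there too. A mutant peak lay in 90 of 131 domains on X (68.7%, 60.3% to 76.0%) and in 69 of 148 on 2L (46.6%, 38.8% to 54.6%). The share was 63.1% on 2R, 64.3% on 3R and 55.9% on 3L. On chromosome 4 only 1 of 8 domains held a mutant peak, whereas all 8 held an Abd-A and a Ubx+Hth peak.

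Domains tended to lie near other Abd-B peaks. The gap from a domain to the nearest Abd-B peak of any width had a median of 1133 bp, against 1788 bp for narrower peaks. The gap to the nearest domain had a median of 25350 bp and ran from 258 to 1014525 bp. It was under 10 kb for 260 domains (35.3%, 31.9% to 38.8%), while 21.9% of narrower peaks lay that close to a domain. Another 154 domains had no other domain within 100 kb.

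Joined across gaps under 10 kb, these 260 domains formed 116 runs, of which 93 held 2 domains, 19 held 3, 3 held 4 and 1 held 5. The run of 5 lay on 3R from 17406863 to 17445773. Its domains were 2544, 6082, 3059, 2007 and 7721 bp wide with scores of 228, 290, 302, 70.6 and 240, and they took up 55.0% of the 38911 bp of the run, in which 9 stringent Abd-B peaks were called. Ubx+Hth covered 73.5% of these domains, Abd-A 64.7%, Ubx of Experiments 1 and 2 45.4% and 48.2%, and the mutant 13.3%. A run of 4 on 2L from 12474179 to 12496905 was different, with 37.9% covered by Ubx+Hth, 35.4% by Abd-A, 19.9% by Ubx of Experiment 1, 6.01% by Ubx of Experiment 2 and none by the mutant. A further run of 4, on 2R from 7479766 to 7503869, was covered to 77.6% by Abd-A, 69.0% by Ubx+Hth, 63.2% and 45.2% by Ubx of Experiments 1 and 2, and 13.5% by the mutant, so here Abd-A exceeded Ubx+Hth.

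At the relaxed q-value of 1e-2 the domains grew and in part merged. The 737 domains lay in 701 relaxed Abd-B peaks with a median width of 3490 bp, and 34 of these held 2 or more domains, 70 in all. In 206 of the 701 (29.4%) the relaxed peak joined a domain to at least 1 further stringent Abd-B peak. The widest relaxed peak spanned 21278 bp on X from 7584076 to 7605353 and held 3 domains, among them the 9251 bp domain described above. A further 779 relaxed Abd-B peaks reached 2000 bp without containing a domain, so how many Abd-B regions count as broad depended on the q-value.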

How the data were processed

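ChIP-Seq peak lists of 6 conditions in 2 experiments were used, each called at q-values of 1e-10 and 1e-2 (12 lists). Per the study's methods and the submitters' processing notes, reads were mapped to BDGP release 5 with Bowtie 1.0.1 and handled with SAMtools 0.1.19 and bedtools 2.19.1. Uniquely mapped reads were kept, replicates were combined, reads at exons of the transfected genes were removed, and MACS2 2.1.0.20140616 called peaks against the Experiment 1 input. The deposited scores are q-values on a −log10 scale, as the authors' peak caller wrote them. They depend on read depth, which differed between libraries, so scores were ranked only within a list.

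Abd-B peaks at 1e-10 of 2000 bp or more were taken as domains. Peaks of another list that shared at least 1 bp with a domain were counted, and covered length was clipped to the domain. Narrower peaks of like score had scores between the quartiles of the domains' scores. Runs joined domains at gaps under 10 kb. Shares carry Wilson 95% intervals. The overlap code was tested on simulated data (500 of 500 regions right) and checked against bedtools 2.31.1 (96810 of 96810 values equal). Python 3.11.15, numpy 2.4.6, pandas 2.3.3, scipy 1.17.1 and matplotlib 3.10.9 were used.

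The domains, comparisons and rules were chosen with earlier results of these data known. Regions named are the 5 widest, the 5 with the highest scores, the 3 least and the 3 most covered, the 3 most covered by the mutant, the 3 on either side of the threshold (ties by position), and the 3 runs with the most domains; the domains with no peak of another list and the widest relaxed peak were added after their values were seen. Alternatives were other widths, joined Abd-B peaks, other q-values, lists of equal length, the central 1000 bp, a 50% overlap, leaving out chromosome 4, and, added later, all lists joined at one gap. Fragment pileups and a release 5 genome and annotation were not used here, so no gene or sequence is given for a domain.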

Additional observations from a re-analysis of the deposited data

How the results depend on the processing

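The 5 lists are given in the order Ubx of Experiment 1, Abd-A, Ubx of Experiment 2, mutant and Ubx+Hth. The number of domains was 1308 at a threshold of 1500 bp, 270 at 3000 bp and 1480 at 2000 bp in the relaxed Abd-B list. Joining Abd-B peaks up to 100 bp apart changed nothing, since no gap was that small. At 1500 bp the shares of domains with a peak were 90.4%, 93.6%, 84.3%, 49.5% and 96.4%. At 3000 bp they were 99.3%, 99.3%, 98.5%, 75.2% and 100%, and cover was 55.4%, 68.9%, 47.7% and 75.1% for the lists other than the mutant. With the relaxed Abd-B list, shares were 86.1%, 91.4%, 79.2%, 44.9% and 95.9%, and cover was 35.5%, 47.5%, 29.5%, 8.29% and 54.8%. With the other lists at 1e-2, shares were 99.1%, 99.5%, 98.2%, 93.1% and 99.9%, and cover was 81.8%, 89.5%, 75.7%, 44.8% and 88.6%, so Abd-A passed Ubx+Hth. With each list cut to its 1793 highest-scoring peaks, shares were 65.7%, 70.3%, 65.9% and 68.9% for the lists other than the mutant, and cover was 37.0%, 48.8%, 33.1% and 50.6%, so the gap to the mutant (59.2% and 13.6%) narrowed. In the central 1000 bp, shares were 88.3%, 94.4%, 80.9%, 41.8% and 97.2%, and cover was 58.6%, 73.7%, 50.3% and 77.4% for the lists other than the mutant. The other 46 of 100 values moved less. For counts the limit was 1.5 times, and for shares the Wilson interval over the 737 domains, which for covered length was only a yardstick and not an error. Among them were all 10 with lists joined at 254 bp. The mutant had the lowest cover under each alternative. No paired analysis was possible because replicates were combined before peaks were called, and no replicate could be left out. Depth limits which weak sites pass a q-value, and the lists do not show it.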
